A study of Mus musculus with 16 samples.

Results

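Genes expressed by macrophages and other myeloid cells were followed in mouse quadriceps muscle. The list held 46 genes, chosen by name and placed by role into 8 sets (macrophage receptors and identity, complement, MHC class II, lysosomal, pan-leukocyte, Fc receptor and ITAM signalling, chemokines and NADPH oxidase). This list and the other gene lists below were chosen with earlier results of these data known. A gene was measured if its probe had a detection p under 0.05, here called above background, on at least 4 of the 16 arrays, and the brightest such probe stood for it. By this rule 35 of the 46 genes were measured, among 8725 genes measured in all. Of the rest, Csf1r, Mpeg1 and Cd68 had no probe named for them in the annotation used here. The probes of 8 others (Itgam, H2-Aa, H2-Eb1, Ptprc, Itgb2, Fcer1g, Ccl2 and Cybb) were above background on 0 of 16 arrays.

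The mice were adults of strain FVB/n, in 4 groups with 4 arrays each. Wild-type (WT) mice were injected with saline. HSALR transgenic mice, which express human skeletal actin RNA with a long CUG repeat in muscle and are used as a model of myotonic dystrophy, were injected with saline, with antisense oligonucleotide (ASO) 445236 or with ASO 190401. An ASO is a short synthetic nucleic acid built to bind a chosen RNA. All groups received subcutaneous injections biweekly for 4 weeks. The transgene is driven by the promoter of human skeletal actin, which is active in muscle fibres, and all oligo-treated mice carried it. The labels call the samples separate without naming separate animals, so p-values here reflect the spread over arrays, which may be technical and whose precision their number limits.

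Muscle at rest holds resident macrophages between its fibres, and more arrive from blood monocytes when fibres are damaged or debris must be cleared. Macrophages take up particles through Fc, complement and scavenger receptors, digest them in lysosomes with cathepsins and lysozyme, and show peptides on MHC class II molecules. In whole muscle RNA, a larger number of such cells and more RNA per cell cannot be told apart.

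All arrays came from 2 chips. HSALR saline and ASO 445236 shared 1 chip, and WT saline and ASO 190401 shared the other, so 2 comparisons lay within a chip (HSALR saline with ASO 445236, and WT with ASO 190401). For the remaining 4, chip cannot be told apart from group. Between 10835 and 11700 of 25697 probes were above background on an array. The 75th percentile of the deposited intensities was lowest in HSALR saline, 102.8 to 120.1, against 128.75 to 150.5 in WT, 132.9 to 151.7 under ASO 445236 and 134.35 to 187.4 under ASO 190401, before normalisation removed that difference. Some arrays stood apart over the myeloid genes. WT replicate 3 was the highest WT array for 30 of 35 genes and WT replicate 1 the lowest for 24, and HSALR saline replicate 3 was the lowest saline array for 30. Calls lost without one of them are named with the results. The muscle genes marked the tissue: the summed normalised intensity of 10 skeletal muscle genes ran from 279130 to 306310 over all arrays. Acta1, the mouse homolog of the actin in the transgene, differed by -0.073 ± 0.059 (adjusted p = 0.388) between HSALR saline and WT.

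Levels are normalised intensities on a linear scale in arbitrary units, listed for replicates 1 to 4 of a group in that order, and equal levels on separate arrays come from equal ranks after quantile normalisation. Differences are on the log2 scale, with standard errors after ±. A gene is called where limma's two-sided moderated test, adjusted over all 8725 genes, gave p under 0.05. Intensities of different probes are not comparable as amounts of RNA. The clearest pattern was in mice given ASO 445236, in which 22 of the 35 genes (62.9%) were higher than in HSALR mice given saline, against 6.81% of all genes. The list was chosen with earlier results of these data known, so the gap between these shares may partly reflect that choice. In HSALR mice given saline 5 of 35 were lower than in WT (14.3%), against 13.1% of all genes. With ASO 190401 2 of 35 were higher than with saline (5.71%), against 8.09% of all genes.

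The start regions of genes called higher under ASO 445236, both against saline and against ASO 190401, are shown where they hold the core GAGGAA, the letters bound by PU.1 (encoded by Spi1, the member that is the master transcription factor of the myeloid lineage). They are RefSeq promoter windows of mouse build GRCm38.p6, from 250 bases before to 50 after the annotated start, 5′ to 3′ on the strand of the gene, with GAGGAA or its reverse complement TTCCTC in capitals. RefSeq gives the reference strain, not FVB/n.
Ctss, chr3:95526536-95526835, plus strand: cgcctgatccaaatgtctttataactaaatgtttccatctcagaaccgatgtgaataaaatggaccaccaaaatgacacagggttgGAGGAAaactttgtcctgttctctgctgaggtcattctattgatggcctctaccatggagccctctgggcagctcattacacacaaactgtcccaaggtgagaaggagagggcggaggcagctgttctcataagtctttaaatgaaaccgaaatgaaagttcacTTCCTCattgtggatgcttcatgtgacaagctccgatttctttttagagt
Cd53, chr3:106790100-106790399, minus strand: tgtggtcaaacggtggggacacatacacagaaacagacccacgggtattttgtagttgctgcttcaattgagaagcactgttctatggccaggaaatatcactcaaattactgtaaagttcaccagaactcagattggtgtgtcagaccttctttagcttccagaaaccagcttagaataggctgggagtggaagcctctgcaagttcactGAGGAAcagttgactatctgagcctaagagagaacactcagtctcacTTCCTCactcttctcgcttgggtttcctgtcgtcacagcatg
Laptm5, chr4:130913066-130913365, plus strand: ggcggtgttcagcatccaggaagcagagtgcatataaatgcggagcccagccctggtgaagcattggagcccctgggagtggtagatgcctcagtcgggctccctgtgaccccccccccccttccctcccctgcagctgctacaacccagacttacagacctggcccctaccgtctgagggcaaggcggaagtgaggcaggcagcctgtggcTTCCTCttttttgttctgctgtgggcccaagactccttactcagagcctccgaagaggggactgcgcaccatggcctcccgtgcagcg
Trem2, chr17:48346151-48346450, plus strand: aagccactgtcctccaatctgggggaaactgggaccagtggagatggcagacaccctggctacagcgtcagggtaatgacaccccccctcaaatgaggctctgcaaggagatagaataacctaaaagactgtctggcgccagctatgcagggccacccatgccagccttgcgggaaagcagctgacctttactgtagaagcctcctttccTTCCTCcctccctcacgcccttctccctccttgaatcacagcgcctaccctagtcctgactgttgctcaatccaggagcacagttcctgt
Fcgr3, chr1:171059354-171059653, minus strand: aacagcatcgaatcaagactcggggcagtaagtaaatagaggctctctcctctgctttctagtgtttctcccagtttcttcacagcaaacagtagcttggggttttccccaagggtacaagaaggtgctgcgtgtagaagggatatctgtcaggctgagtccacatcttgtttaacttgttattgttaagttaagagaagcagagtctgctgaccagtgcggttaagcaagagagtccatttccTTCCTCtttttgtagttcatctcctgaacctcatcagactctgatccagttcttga
Ctsk, chr3:95498960-95499259, plus strand: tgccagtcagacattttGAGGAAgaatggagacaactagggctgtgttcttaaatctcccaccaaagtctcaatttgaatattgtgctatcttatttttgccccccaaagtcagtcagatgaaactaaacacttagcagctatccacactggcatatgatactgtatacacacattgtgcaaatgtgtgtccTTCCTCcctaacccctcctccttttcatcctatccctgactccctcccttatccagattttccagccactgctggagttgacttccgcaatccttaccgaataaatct

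Windows were found for 31 of the 46 genes (37 windows, since some genes have several starts), and each motif was searched on both strands. GAGGAA was in 18 of the 37 windows, 48.6%, against 28.3% of all 32817 windows. Of the measured genes with a window, 9 of 13 called higher under ASO 445236 held it, as did 3 of 10 not called. The longer form GAGGAAGT, which contains GAGGAA, was in 10.8% of the windows of the list (C1qc, Cd53, Ctss and Pf4) and 3.2% of all windows. The C/EBP motif TTGCNNAA was in 18.9% and 10.8%, the NF-kB form GGGNNTTCC in 16.2% and 5.82%, the lysosomal CLEAR core TCACGTGA in 2.7% (Ctsd) and 0.975%, and TATAAA in 13.5% and 13.6%. Windows of the same gene can overlap, as those of Fcgr3 do, so that a site is counted again. By gene, GAGGAA was in 16 of 31, TTGCNNAA in 6 and GGGNNTTCC in 5. These are matches of letters, described without a test, and no factor's binding was measured.

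**Figure D1:**
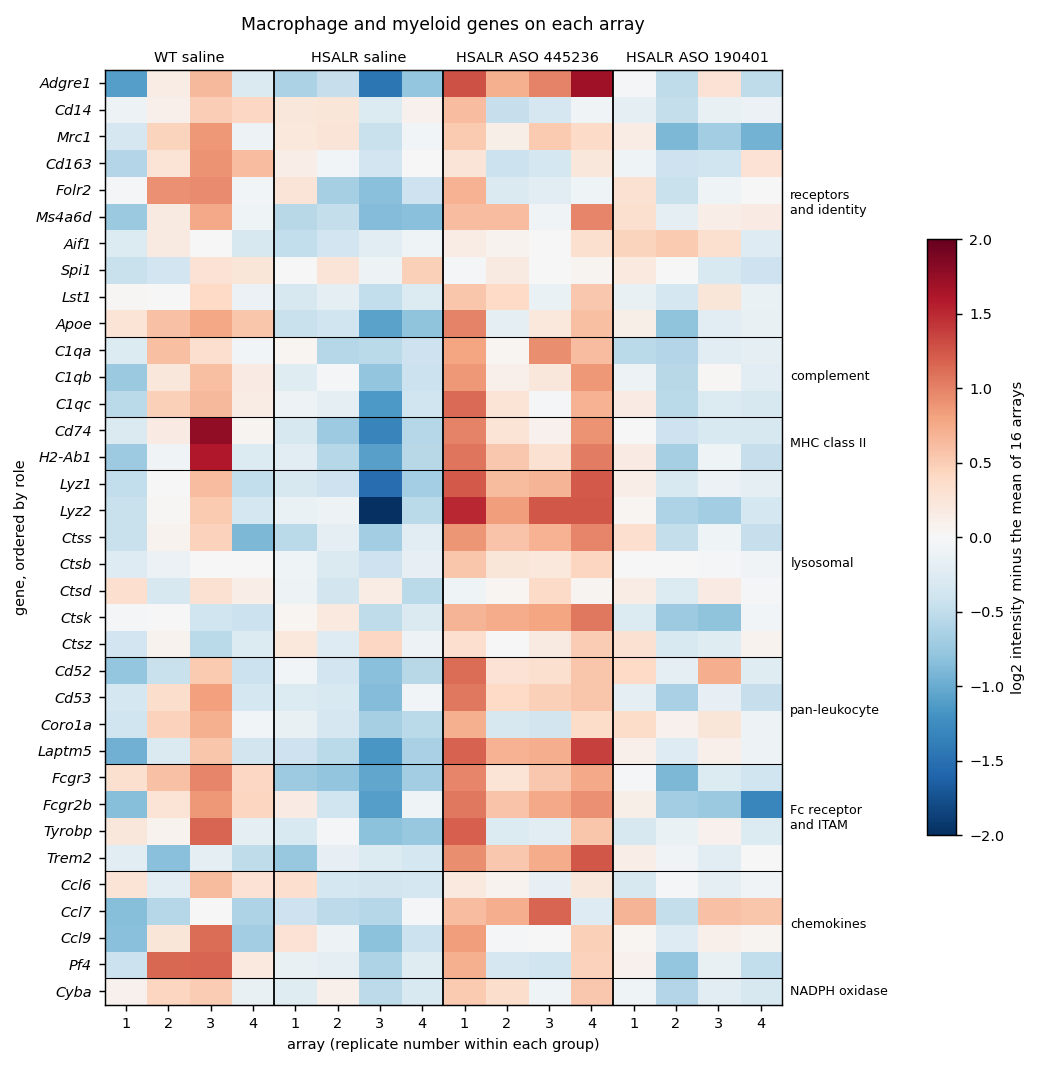
Heat map of the 35 measured genes (rows, ordered by role) on the 16 arrays (columns, in 4 groups of 4). Colour is the log2 normalised intensity minus the gene's mean over 16 arrays, cut at 2 in either direction. The ASO 445236 columns are mostly above the mean and the HSALR saline columns mostly below it, and WT replicate 3 and HSALR saline replicate 3 stand out from their groups.

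The saline-treated HSALR and WT groups were compared for myeloid genes across chips, so genotype and chip cannot be told apart here. The members lower in HSALR muscle were Fcgr3, Apoe, Cd74, Folr2 and Ms4a6d, which were 3 of 10 receptor and identity genes, 1 of 4 Fc receptor and ITAM signalling genes and 1 of 2 MHC class II genes. Of the 35 members 0 were higher, while 14.1% of all genes were higher, and 5 were lower (14.3%), against 13.1% of all genes lower. The share of lower calls was thus near the background in this main setting. The median difference of the members was -0.43, against -0.017 over all genes, and 30 of 35 differences were negative. At an unadjusted p under 0.05, limma put 16 members lower and 0 higher.

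Fcgr3 encodes a low-affinity activating receptor for IgG. It read 135, 163, 212 and 145 in WT and 65.6, 62.8, 52.5 and 66.9 in HSALR saline. All 4 HSALR saline arrays lay below all WT arrays, a difference of -1.39 ± 0.19 (adjusted p = 3.14e-05). Apoe, the lipid carrier apolipoprotein E that macrophages secrete, read 319, 395, 449 and 389.9 in WT and 193, 199.8, 125 and 152 in HSALR saline. These groups also did not overlap, and the difference was -1.23 ± 0.22 (adjusted p = 0.000474). Cd74, the invariant chain that escorts MHC class II molecules, read 645, 885, 2687 and 815 in WT and 628, 473, 316 and 531 in HSALR saline. WT replicate 3 was far above the other WT arrays. The difference was -1.16 ± 0.32 (adjusted p = 0.012), and -0.71 without that array (adjusted p = 0.0276). It was called in all 17 alternatives tried, with a highest adjusted p of 0.0488. Folr2, a folate receptor of resident tissue macrophages, read 69.5, 133, 135 and 67.6 in WT and 83.8, 44.1, 39.5 and 52.5 in HSALR saline. The groups overlapped, the difference was -0.86 ± 0.28 (adjusted p = 0.0285), and it was called in 12 of 17 alternatives. Its adjusted p was 0.0973 without WT replicate 3 and 0.0927 without HSALR saline replicate 3. Ms4a6d, a membrane protein gene of the MS4A family found in macrophages, read 48.8, 92.4, 138 and 77.1 in WT and 55.6, 58.9, 44.5 and 45.9 in HSALR saline. Its difference of -0.71 ± 0.25 (adjusted p = 0.0448) was called in 6 of 17 alternatives, and was -0.47 without WT replicate 3 (adjusted p = 0.17).

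The remaining members did not pass the test. The 3 complement C1q genes had differences of -0.43 to -0.65, the 4 pan-leukocyte genes of -0.17 to -0.60, and the NADPH oxidase subunit gene Cyba -0.46 ± 0.17 (adjusted p = 0.0505). Lysosomal genes ran from -0.67 to 0.35. The count of lower members was 3 without WT replicate 3, without HSALR saline replicate 3 or without HSALR saline replicate 4, where 10.9%, 10.6% and 10.4% of all genes were lower. It was 17 of 35 without WT replicate 1, against 14.1% of all genes. It was 9 of 35 in the authors' deposited processed matrix, against 14.2% of all genes. Whether the share of lower members was near the background thus depended on the setting.

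Genes outside the list were also called in the same comparison, in which 13.1% of all genes were lower and 14.1% higher. Of 28 further macrophage genes 5 fell, among them the lysosomal progranulin gene Grn (-0.88 ± 0.13, adjusted p = 8.59e-05) and the phagosome metal transporter gene Slc11a1 (-0.74 ± 0.13, adjusted p = 0.000423), and 1 rose, the galectin gene Lgals3 (0.66 ± 0.18, adjusted p = 0.00998). All 4 measured mast cell genes fell (Mcpt4 -1.98, Cpa3 -1.58, Cma1 -1.56, Tpsb2 -1.48), with 3 of them above background on only some arrays, and their summed intensity ran from 159 to 1158 in WT and 134 to 307 in HSALR saline. Of 9 fibroblast genes 6 fell, among them the adventitial marker Pi16 at -1.20 and the matrix proteoglycan gene Dcn at -0.58, and the summed intensity was 20966 to 23658 in WT and 13285 to 15237 in HSALR saline. Of 4 adipocyte genes 3 fell (Adipoq -1.42, Cidec -1.20, Lep -0.85). Of 7 endothelial genes 2 fell (Vwf -0.69, Tek -0.68). The part of these cells in the myeloid differences was not tested.

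HSALR mice given ASO 445236 and HSALR mice given saline lay on 1 chip, and comparing them shows which myeloid genes differed after this oligo. Higher with the oligo were 5 of 7 lysosomal genes, all 3 complement C1q genes, both MHC class II genes, 3 of 4 Fc receptor and ITAM signalling genes and 4 of 10 receptor and identity genes. The difference reached 4-fold for the brightest probe of Adgre1, the F4/80 antigen that defines mouse macrophages, and was smaller for a second probe (1.24 on the log2 scale). Of the 35 members 22 rose, against 6.81% of all genes, and 0 fell, against 6.73% of all genes. For 20 members all 4 oligo arrays lay above all 4 saline arrays, which held for 9.8% of all genes, and the median difference of the members was 0.95, against 0.0095 over all genes. At an unadjusted p under 0.05, limma put 25 members higher and 0 lower. Among the 23 members above background on all 16 arrays 14 rose, and among the 12 detected on fewer arrays 8 rose.

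**Figure D2:**
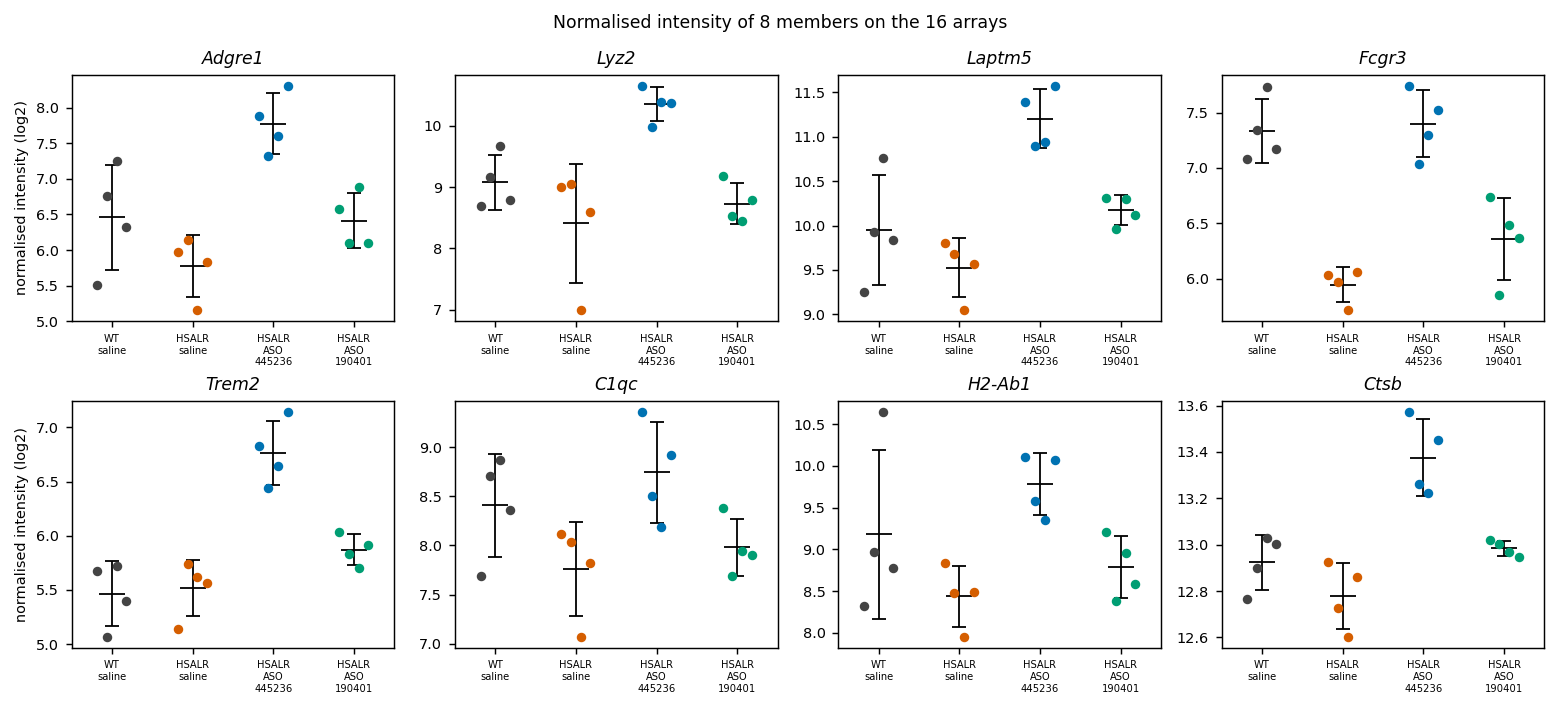
Normalised intensity (log2, vertical axis, each panel with its own range) of 8 members on each of 4 arrays per group; points are arrays, horizontal bars means and error bars SD (n = 4). For Adgre1, Lyz2, Laptm5, Trem2 and Ctsb all 4 ASO 445236 arrays lie above every array of the other groups, while Fcgr3 under ASO 445236 overlaps WT.

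Among macrophage receptors and identity genes 4 of 10 rose. Adgre1 read 62.7, 70.9, 35.6 and 57.0 with saline and 236, 159, 194 and 317 with ASO 445236. The groups did not overlap and the difference was 2.0 ± 0.31 (adjusted p = 0.00023). A second Adgre1 probe, above background on all 16 arrays, gave 1.24. Ms4a6d read 124, 125, 78.0 and 161 with the oligo and rose by 1.22 ± 0.25 (adjusted p = 0.00311). Apoe read 523, 234, 305 and 403 and rose by 1.09 ± 0.22 (adjusted p = 0.00296). Lst1, a small immune-cell membrane protein gene, was above background on 0 of 4 saline arrays and 3 of 4 oligo arrays, so its rise was at least 1.34-fold (adjusted p = 0.0167).

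The receptors named for other macrophage functions did not pass. Mrc1, the mannose receptor, read 412, 424, 260.4 and 343 with saline and 508, 383, 512 and 459.9 with the oligo, a difference of 0.39 ± 0.25 (adjusted p = 0.341). Cd163, the haemoglobin scavenger receptor of resident macrophages, read 135, 119, 94.8 and 125 with saline and 148, 92.2, 96.6 and 145 with the oligo, so that the groups overlapped. Its difference was 0.0029 ± 0.26 (adjusted p = 0.995). Cd14, the co-receptor for bacterial lipopolysaccharide, had -0.14 ± 0.21 (adjusted p = 0.715) and Spi1 -0.11 ± 0.19 (adjusted p = 0.772) and these were the 2 negative differences among the 35. The Spi1 probe was above background on 2 of 4 arrays in either group, so its difference says little about the level of its RNA. Folr2 had 0.45 ± 0.28 (adjusted p = 0.335) and the calcium-binding protein gene Aif1 0.43 ± 0.17 (adjusted p = 0.112).

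Lysosomal genes gave 5 rises among 7. Lyz2, the lysozyme of macrophages, read 515, 529, 127 and 388 with saline and 1608, 1008, 1332 and 1331 with the oligo. All oligo arrays were above all saline arrays and the difference was 1.94 ± 0.33 (adjusted p = 0.000619). HSALR saline replicate 3 was far below the other saline arrays. Lyz1, a near-identical copy of Lyz2, read 3582, 3376, 1550.4 and 2793 with saline and 10461, 6916, 7137 and 10461 with the oligo, with a difference of 1.67 ± 0.25 (adjusted p = 0.000142). Which of the pair each probe detects is uncertain, and their other probes above background gave 1.87 (Lyz2), 1.98 and 2.33 (both Lyz1). Ctss, the cathepsin that trims the invariant chain for antigen presentation, read 41.1, 52.5, 36.7 and 50.9 with saline and 110.0, 87.9, 96.0 and 117 with the oligo and rose by 1.19 ± 0.24 (adjusted p = 0.00287). Ctsk, a cathepsin that degrades collagen, read 273, 303, 186 and 217 with saline and 425, 444, 459 and 554 with the oligo and rose by 0.96 ± 0.18 (adjusted p = 0.0011). Ctsb, a broadly expressed lysosomal cathepsin, read 7780.3, 6783, 6226 and 7427 with saline and 12176, 9809.6, 9553 and 11191 with the oligo. This was a small rise with little spread, 0.60 ± 0.084 (adjusted p = 9.06e-05). The cathepsins Ctsd (0.31 ± 0.18, adjusted p = 0.281) and Ctsz (0.19 ± 0.18, adjusted p = 0.562) did not pass.

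All 3 genes of complement C1q, the recognition molecule that starts the classical pathway and is made mostly by macrophages, rose. C1qc, the brightest, read 277, 263, 135 and 226 with saline and 656, 363, 291 and 486 with the oligo, without overlap, a difference of 0.98 ± 0.27 (adjusted p = 0.0219). C1qa rose by 0.97 ± 0.22 (adjusted p = 0.00527), with overlapping groups, and C1qb by 0.89 ± 0.24 (adjusted p = 0.0209). The call of C1qa held in all 18 alternatives, that of C1qc in 15 and that of C1qb in 14. Without HSALR saline replicate 3 the adjusted p was 0.0876 for C1qc and 0.0781 for C1qb. Both measured MHC class II genes rose. H2-Ab1, a beta chain of the class II molecule, read 456, 355, 248 and 359 with saline and 1104, 767, 655 and 1078 with the oligo, a difference of 1.34 ± 0.35 (adjusted p = 0.0142), and its other 3 probes gave 1.08 to 1.46. Cd74 read 1564, 955, 835 and 1472 with the oligo and rose by 1.30 ± 0.32 (adjusted p = 0.0113). Without HSALR saline replicate 3 the adjusted p of H2-Ab1 was 0.0535, over the threshold, and over all 18 alternatives it ran from 0.000436 to 0.0535.

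Pan-leukocyte genes gave 3 rises among 4. Laptm5, a lysosomal membrane protein gene of blood cells, read 893, 817, 528 and 756 with saline and 2691, 1912, 1965 and 3053 with the oligo. The groups lay well apart, and the difference was 1.68 ± 0.23 (adjusted p = 7.51e-05). Cd52, a small surface glycoprotein gene, rose by 1.02 ± 0.27 (adjusted p = 0.0174), and the tetraspanin gene Cd53 by 1.0 ± 0.25 (adjusted p = 0.0104). Coro1a, an actin-binding protein gene of leukocytes, did not pass (0.52 ± 0.24, adjusted p = 0.172).

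Fc receptor and ITAM signalling genes gave 3 rises among 4. Fcgr3 read 214, 131, 157 and 184 with the oligo, above all saline arrays listed earlier, a difference of 1.45 ± 0.19 (adjusted p = 4.40e-05). Trem2, a lipid-sensing receptor of phagocytes, read 35.3, 53.4, 49.3 and 47.2 with saline and 114, 87.1, 99.8 and 141 with the oligo, also without overlap, and rose by 1.25 ± 0.18 (adjusted p = 0.000128). Fcgr2b, the inhibitory IgG receptor, read 87.5, 59.2, 36.3 and 73.6 with saline and 162, 115, 131 and 147 with the oligo and rose by 1.17 ± 0.33 (adjusted p = 0.0245). A second Fcgr2b probe, above background on 6 of 16 arrays, gave 0.48, and the call held in 13 of 18 alternatives, not in the authors' deposited processed matrix. Tyrobp, the signalling adaptor of Trem2 and related receptors, was above background on 2 of 4 oligo arrays and had 0.79 ± 0.31 (adjusted p = 0.0981).

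Of the chemokines 1 in 4 rose. Ccl7, a monocyte attractant, read 33.9, 31.3, 30.3 and 43.9 with saline and 68.8, 74.7, 100.4 and 37.7 with the oligo. The groups overlapped through ASO 445236 replicate 4, the difference was 0.95 ± 0.28 (adjusted p = 0.0326), and it was called in 10 of 18 alternatives. Ccl9, the brightest chemokine probe, had 0.59 ± 0.33 (adjusted p = 0.267), Pf4 (platelet factor 4) 0.41 ± 0.31 (adjusted p = 0.444) and Ccl6 0.26 ± 0.19 (adjusted p = 0.414). Cyba, the membrane subunit p22phox of the NADPH oxidase, rose by 0.58 ± 0.17 (adjusted p = 0.0297) and was called in 12 of 18 alternatives.

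The number of members that rose was 22 in a fit of the 8 arrays of the chip alone and 14 to 21 when 1 array was left out, lowest without HSALR saline replicate 3 and 15 without ASO 445236 replicate 1. The share of all genes that rose was 7.55% in the fit of the chip alone. It was 4.92% without HSALR saline replicate 3 and 5.31% without ASO 445236 replicate 1. Of the 22 genes, 14 were called in every alternative tried. The other 8 (H2-Ab1, Fcgr2b, Cd52, C1qc, Ccl7, C1qb, Lst1 and Cyba) were not called without HSALR saline replicate 3, where their adjusted p was 0.0535 for H2-Ab1 to 0.102 for Cyba.

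Other lists moved in both directions in this comparison, in which 6.81% of all genes rose and 6.73% fell. Of 28 further macrophage genes measured (66 listed) 11 rose and 0 fell (17 and 0 by unadjusted limma p under 0.05), led by the lectin receptor gene Clec10a at 1.57, the galectin gene Lgals3 at 1.49 and the lysosomal progranulin gene Grn at 1.11. Fcgr4, an activating IgG receptor gene, was above background on all 4 oligo arrays and 0 of 4 saline arrays. It was so on 0 WT and 0 ASO 190401 arrays. Tlr13, also among the 11, was above background on 4 arrays with ASO 445236, 1 with saline, 1 in WT and 0 with ASO 190401. Fcgr4 and Tlr13 thus met the rule for a measured gene only through the group in which they were high, so their rises add no support. Of 18 lymphocyte genes and 8 dendritic cell genes 0 were measured, and of 3 neutrophil genes measured (12 listed) limma called 0, also at an unadjusted p under 0.05, with differences of 0.012 to 1.01. Their summed intensity was 90.7 to 109 with saline and 114 to 255 with the oligo, sums made mostly of readings at background. Of 4 arrays per group, S100a8 was above background on 0 with saline and 2 with the oligo. Csf3r was so on 0 and 0, and Elane on 1 and 1. Of 9 fibroblast genes 3 rose (Pi16 1.06, Dpt 0.82, Dcn 0.27) and 3 others had negative differences, with summed intensities of 13285 to 15237 and 16020 to 19588. Of 4 adipocyte genes 3 rose (Adipoq 1.37, Lep 1.27, Cidec 1.19), with summed intensities of 7427 to 9126 and 5407 to 11227. Endothelial genes ran the other way, with 6 of 7 differences negative and a median of -0.56. Of these Flt1, a VEGF receptor gene, fell (-0.76 ± 0.22, adjusted p = 0.0247), 5 were lower at an unadjusted limma p under 0.05, and the summed intensity was 3030 to 3952 with saline and 1769 to 3689 with the oligo. Mast cell genes had 4 of 4 positive differences, of 0.54 to 0.93, with 0 called by limma and 1 at an unadjusted p under 0.05. The part of these cells in the myeloid differences was not tested.

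**Figure D3:**
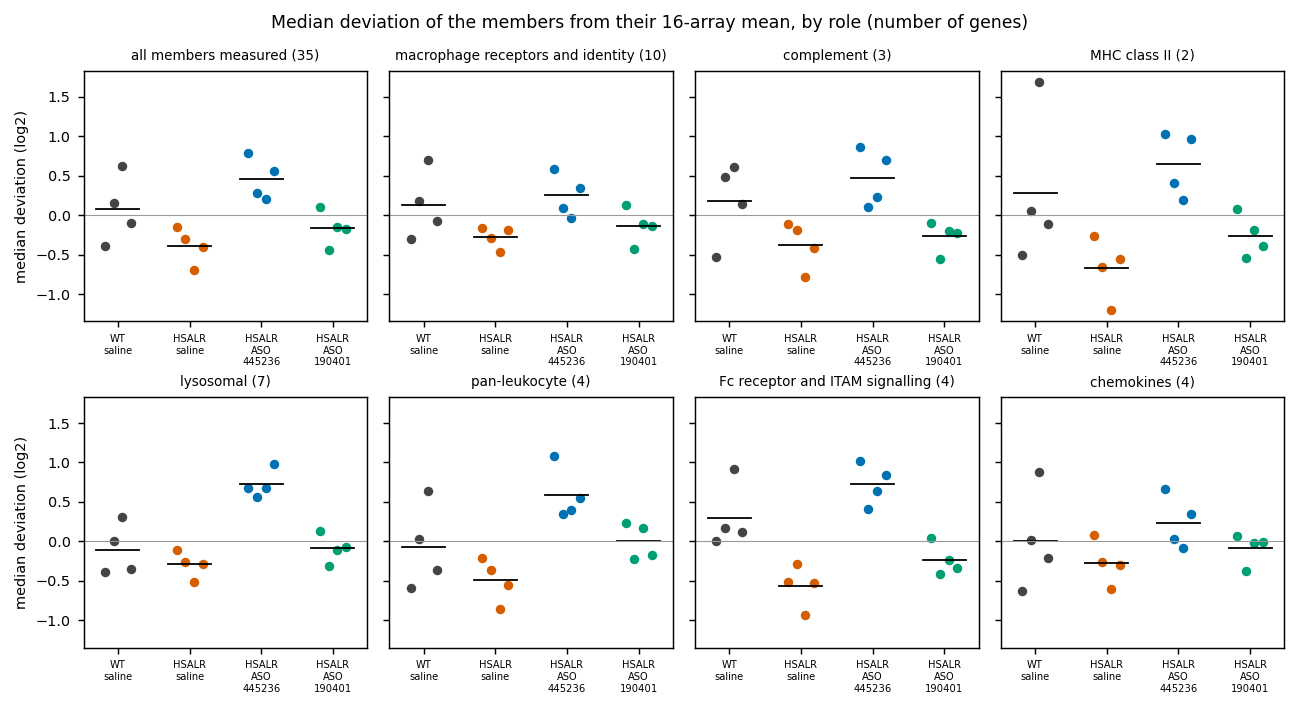
Median, over the genes of a role, of the log2 deviation from each gene's 16-array mean (vertical axis), per array; points are arrays, bars are means of 4 arrays, and the number of genes is in brackets (NADPH oxidase, with 1 gene, is not drawn). Lysosomal genes on the ASO 445236 arrays run from 0.57 to 0.98, above the highest array of any other group at 0.31, while receptors and identity genes overlap between groups.

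The other oligo, ASO 190401, was likewise compared with the HSALR saline group, on the other chip. Fewer members were called than for ASO 445236, and no lysosomal, complement or Fc receptor gene passed the test. Of the 35 members 2 rose (5.71%), against 8.09% of all genes, and 0 fell, against 7.71% of all genes, so the share of rises was near the background. The median difference of the members was 0.23, against 0.017 over all genes. The unadjusted limma p was under 0.05 for 9 members that were higher and 1 that was lower. Aif1, a calcium-binding protein gene of activated macrophages, read 43.7, 47.3, 52.9 and 57.8 with saline and 84.1, 88.9, 76.6 and 51.6 with ASO 190401. The groups overlapped and the difference was 0.56 ± 0.17 (adjusted p = 0.0367), called in 9 of 17 alternatives. A second Aif1 probe, above background on 11 of 16 arrays, gave 0.11, and the call was lost with the mean of the detected probes. Ms4a6d read 55.6, 58.9, 44.5 and 45.9 with saline and 102, 72, 89.8 and 91.8 with ASO 190401, without overlap, a difference of 0.80 ± 0.25 (adjusted p = 0.0402), called in 7 of 17 alternatives. Without HSALR saline replicate 3 the adjusted p was 0.0588 for Aif1 and 0.1 for Ms4a6d. Laptm5, next by p, read 1269.7, 993, 1264 and 1110.0 and had 0.65 ± 0.23 (adjusted p = 0.067). Its oligo arrays were all above the saline arrays. The 3 C1q genes had differences of -0.0055 to 0.22, Adgre1 0.64 ± 0.31 (adjusted p = 0.182) and Lyz2 0.32 ± 0.33 (adjusted p = 0.571). Left-out arrays gave 0 to 3 rises, against 5.39% to 7.27% of all genes. Median scaling gave 6, against 22.3% of all genes, a setting that moved the median of all genes to 0.18. Of 28 further macrophage genes 1 rose (Slc11a1, a phagosome metal transporter gene, 0.51) and 0 fell (6 and 0 by unadjusted limma p under 0.05), while 2 of 9 fibroblast genes and 1 of 4 adipocyte genes fell. As with ASO 445236, 6 of 7 endothelial differences were negative, with a median of -0.57. Of these genes 0 were called and 4 were lower at an unadjusted limma p under 0.05. Mast cell genes again had 4 of 4 positive differences, of 0.42 to 0.57, with 0 called. The oligo comparisons share the saline arrays.

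**Figure D4:**
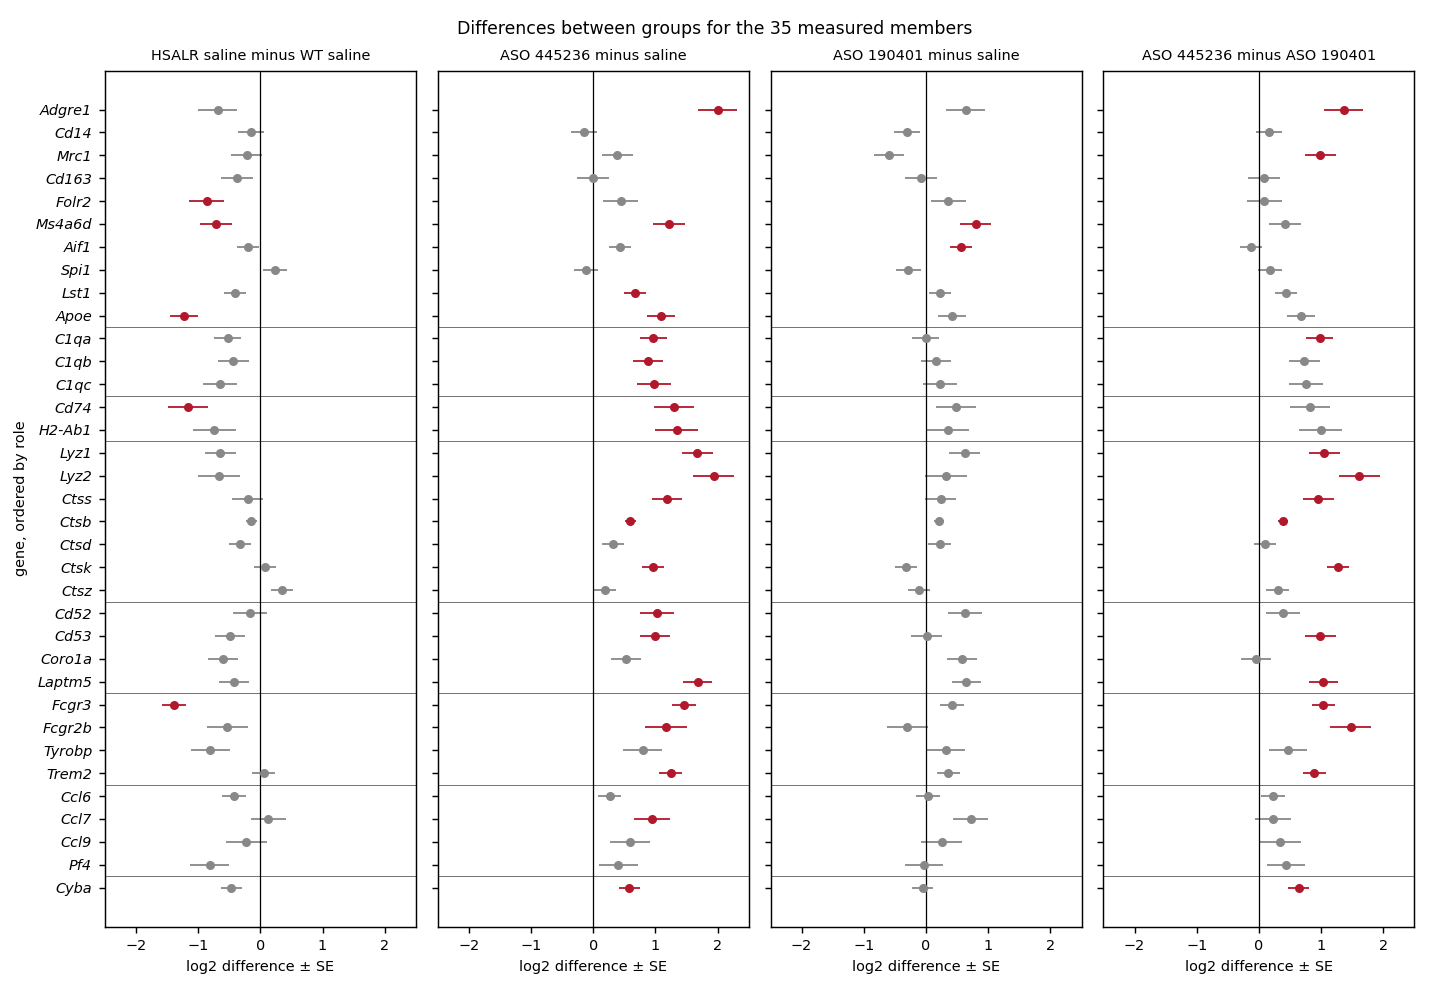
Log2 difference (horizontal axis) with its standard error for the 35 measured genes in 4 comparisons; red points were called and grey points were not. In the second panel 22 genes are red and right of 0, in the third 2, and in the fourth 14.

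ASO 445236 against ASO 190401 compares the oligos directly, across chips. Higher with ASO 445236 were 5 of 7 lysosomal genes, 3 of 4 Fc receptor and ITAM signalling genes, 2 of 4 pan-leukocyte genes and 2 of 10 receptor and identity genes. In all, 14 of the 35 members were higher (40.0%), against 1.95% of all genes, and 0 lower, against 1.07% of all genes, and the median difference was 0.64, against -0.016 over all genes. The unadjusted limma p was under 0.05 for 20 members higher and 0 lower. Lyz2 read 579, 368, 347 and 442 with ASO 190401, below every ASO 445236 array, a difference of 1.61 ± 0.33 (adjusted p = 0.0129). Fcgr2b read 84.4, 48.0, 46.7 and 31.6, also below, with 1.47 ± 0.33 (adjusted p = 0.02), while its second probe gave 0.45. Adgre1 read 95.8, 68.3, 118 and 68.3, with 1.36 ± 0.31 (adjusted p = 0.021), while its second probe gave 0.93. For 16 of 35 members, these 3 included, all ASO 445236 arrays lay above all ASO 190401 arrays. This held for 4.96% of all genes. Ctsk read 219.9, 161, 152 and 256 with ASO 190401 and differed by 1.28 ± 0.18 (adjusted p = 0.000686), the smallest p of the list. Lyz1 read 4916, 3624, 4138 and 3966 and differed by 1.05 ± 0.25 (adjusted p = 0.0252). Fcgr3 read 107, 57.9, 89.6 and 82.6 and differed by 1.04 ± 0.19 (adjusted p = 0.00629). Laptm5 differed by 1.03 ± 0.23 (adjusted p = 0.0209) and Cd53, which read 103, 65.6, 69.3 and 72.9 against 43.8, 31.6, 44.2 and 36.2, by 0.99 ± 0.25 (adjusted p = 0.0351). The other 6 called members were Mrc1 (0.98), C1qa (0.97), Ctss (0.96), Trem2 (0.89), Cyba (0.64) and Ctsb (0.39). Of the 14 calls 3 held in every alternative. Mrc1, with overlapping groups, was called in 8 of 17, Ctss in 6 and Cyba (adjusted p = 0.0489) in 3. Genes with differences near 0 were Coro1a (-0.048 ± 0.24, adjusted p = 0.943), Cd163 (0.079 ± 0.26, adjusted p = 0.908), Folr2 (0.089 ± 0.28, adjusted p = 0.904) and Aif1 (-0.13 ± 0.17, adjusted p = 0.758), and the 4 chemokines had 0.23 to 0.44. A second Coro1a probe, above background on all 16 arrays, gave 0.37, and a second Aif1 probe, above background on 11, gave 0.12. The count of 14 fell to 3 without ASO 445236 replicate 4, to 5 without ASO 190401 replicate 2 or 4, to 8 without ASO 445236 replicate 1 and to 7 in the authors' deposited processed matrix. Calls over all genes fell as well. In the same order, the share of all genes higher was 0.802%, 0.825%, 0.905%, 1.56% and 1.35%, against 1.95% in the main setting.

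Genes of other cell types also differed between the oligos, where 1.95% of all genes were higher with ASO 445236 and 1.07% lower. Of 28 further macrophage genes 6 were higher with ASO 445236, led by Lgals3 (1.01 ± 0.18, adjusted p = 0.00519). The 28 include Fcgr4 and Tlr13, which were measured only through the ASO 445236 arrays. Of 9 fibroblast genes 2 were higher, Col3a1 (1.39 ± 0.26, adjusted p = 0.00615) and Pi16 (0.70 ± 0.18, adjusted p = 0.0378), and 6 at an unadjusted limma p under 0.05, with a median of 0.55 and summed intensities of 16020 to 19588 with ASO 445236 and 13751 to 15396 with ASO 190401. Of 4 adipocyte genes 1 was called higher and 4 had an unadjusted limma p under 0.05, with a median of 1.19 and summed intensities of 5407 to 11227 and 3392 to 6303. The 4 erythroid genes had differences of 0.88 to 1.63, with 0 called by limma, 1 at an unadjusted p under 0.05, and summed intensities of 5614 to 39507 and 6039 to 10348. The part of these cells in the myeloid differences was not tested.

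Each oligo group was also set against WT, which asks how far treated HSALR muscle lay from normal muscle. ASO 445236 and WT lay on different chips, so chip and group cannot be told apart in that comparison. With ASO 445236, 9 of 35 members were above WT, against 6.25% of all genes, and 0 below, against 5.04% of all genes, with a median of 0.37 (0.0028 over all genes). By unadjusted limma p under 0.05 these counts were 11 and 0. Those above WT were Adgre1 (1.31 ± 0.31, adjusted p = 0.0109), Trem2 (1.30 ± 0.18, adjusted p = 0.000178), Lyz2 (1.27 ± 0.33, adjusted p = 0.0205), Laptm5 (1.26 ± 0.23, adjusted p = 0.00219), Ccl7 (1.07 ± 0.28, adjusted p = 0.0211), Ctsk (1.03 ± 0.18, adjusted p = 0.00121), Lyz1 (1.03 ± 0.25, adjusted p = 0.0122), Ctss (0.99 ± 0.24, adjusted p = 0.0146) and Ctsb (0.45 ± 0.084, adjusted p = 0.00227). Trem2 read 51.1, 33.6, 52.6 and 42.1 in WT, Adgre1 45.7, 108, 152 and 80.0 and Laptm5 611, 971, 1735 and 917, so that in each the WT arrays lay below all ASO 445236 arrays. Lyz2 read 413, 571, 814 and 442 in WT, Ctsk 262, 263, 202 and 197 and Ctss 43.4, 62.2, 81.8 and 32.0, also without overlap. Lyz1 read 3169, 4483, 6881 and 3183 in WT and Ccl7 24.9, 30.4, 44.8 and 29.2, and the latter overlapped. The lysosomal set held 5 of these 9 genes among its 7 members. The second Adgre1 probe gave 1.02 against WT. The members lower in HSALR saline than in WT did not pass the test between ASO 445236 and WT. Their differences were Fcgr3 0.066 ± 0.19 (adjusted p = 0.863), Apoe -0.14 ± 0.22 (adjusted p = 0.744), Cd74 0.14 ± 0.32 (adjusted p = 0.831), Folr2 -0.42 ± 0.28 (adjusted p = 0.373) and Ms4a6d 0.51 ± 0.25 (adjusted p = 0.219).

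Other lists held genes on both sides of WT, as did all genes, with 6.25% above and 5.04% below. Of the 28 further macrophage genes 6 were higher, led by Lgals3 (2.15 ± 0.18, adjusted p = 2.41e-07), and 3 were lower, Retnla (-1.61 ± 0.49, adjusted p = 0.0409), Lyve1 (-0.99 ± 0.29, adjusted p = 0.0326) and Slc11a1 (-0.42 ± 0.13, adjusted p = 0.0493). Among the 6 were Fcgr4 and Tlr13, which were measured only through the ASO 445236 arrays. Of 9 fibroblast genes 4 were below WT, and so were 3 of 7 endothelial genes.

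With ASO 190401, within 1 chip, 3 of 35 members were below WT (8.57%), against 5.31% of all genes, and 0 above, against 5.09% of all genes, with a median of -0.28 (0.026 over all genes). By unadjusted limma p under 0.05 there were 9 below and 2 above. Fcgr3 was lower, at -0.97 ± 0.19 (adjusted p = 0.00296), with no overlap, and was called in all 18 alternatives. Apoe read 286, 150.4, 226 and 239 with ASO 190401 and was lower, at -0.81 ± 0.22 (adjusted p = 0.0259), called in 13 of 18. Mrc1 read 280.1, 481, 644 and 332 in WT and 391, 189.9, 219.6 and 183 with ASO 190401, with overlap through its first replicate, -0.82 ± 0.25 (adjusted p = 0.0415), called in 9 of 18. Apoe and Mrc1 were not called without WT replicate 3 (adjusted p = 0.073 and 0.141). In the same comparison 7 of 9 fibroblast genes, 3 of 4 adipocyte genes and 2 of 7 endothelial genes fell, and of 28 further macrophage genes 1 was higher and 1 lower. Leaving out 1 array gave 1 to 6 lower members, with 6 without WT replicate 1, and 1 without WT replicate 2, WT replicate 3 or ASO 190401 replicate 2. In the same order, the share of all genes lower was 5.73%, 4.09%, 4.16% and 3.69%.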

How the data were processed

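Quadriceps total RNA (100 ng per sample, per the labels' protocols) from 16 samples was hybridised to Illumina bead arrays. The deposited non-normalized table holds, per the file headers, an intensity and a detection p-value for each of 25697 probes, with the background already subtracted. In 2 columns 60 cells were not numbers and were treated as missing, 0 of them in the genes of the list. The authors' deposited processed matrix, with intensity values on a linear scale, was used as an alternative. The submitters' processing notes name affy, with no role.

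Probes were named through GEO's platform annotation. Of 25697 probes 23978 had 1 gene, 0 several and 1719 none, and 23962 matched a RefSeq table of GRCm38.p6 by gene identifier, with 0 symbols changed. The intensities went through normexp using the detection p-values (offset 16), quantile normalization and log2, in limma 3.58.1 (R 4.3.3). Probes above background on at least 4 arrays were kept (12364), and the brightest stood for its gene. One model over 16 arrays, fitting each group's mean (residual degrees of freedom 12, intensity trend) gave 6 comparisons, adjusted by Benjamini-Hochberg over 8725 genes within each. The groups came from the labels' genotype and treatment. Correlations within a group were 0.9785 to 0.9921 and 0 pairs were identical.

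The genes of the list and the other lists were chosen with earlier results of these data known. Every called member is named, and the up to 8 with the largest difference are given on every array, with the 3 smallest p where fewer than 3 were called. The brightest member of each role, up to 4 called genes of each other list, and Acta1 are also named, as is Tlr13 for its detection. Where a probe was above background on no array of a group, the fold is a lower bound. The bright group's mean was set against the dim group's, with each dim array raised to its lowest above-background signal where the probe lay under it. Alternatives changed the offset (50), background correction, scaling (median), filter (none, or 8 arrays), probe rule, intensity trend, chip position, the arrays of 1 chip, the authors' matrix, and left out each array in turn. On simulated data for ASO 445236 minus saline (8725 genes) with 50 genes set at each fold, the calls were 5 at 1.2-fold, 25 at 1.5-fold, 46 at 2-fold and 48 at 4-fold, and 6 unchanged genes were called.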

Additional observations from a re-analysis of the deposited data

Results flagged for a closer look

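The level of each measured gene was checked within each group of 4 for 1 array far from the others, by Dixon's ratio of gap to range against its 95% critical value. Of 140 pairs of gene and group 2 passed, where chance gives about 1 in 20 groups, or 7. Ccl6, a chemokine of macrophages in mice, was highest on HSALR saline replicate 1, at a log2 normalised intensity of 5.67, with the nearest other array at 4.99. Ccl7 was lowest on ASO 190401 replicate 2, at 5.01, with the nearest at 6.05.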

How the results depend on the processing

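Over all alternatives 0 called members changed sign. The count of members higher under ASO 445236 than saline was 21 to 23 in the alternatives that keep all 16 arrays. Counts moved by over 1.5 times in these. HSALR saline minus WT had 9 lower members in the authors' deposited processed matrix (5 in the main setting), where 14.2% of all genes were lower. ASO 190401 minus saline had 6 higher with median scaling, 1 with an offset of 50, with the mean of the detected probes or without the intensity trend, and 0 without the detection filter (2). ASO 190401 minus WT had 1 higher and 1 lower with median scaling (0 and 3). ASO 445236 minus ASO 190401 had 7 higher in the authors' deposited matrix (14), where 1.35% of all genes were higher. The causes were not tested. Leaving out 1 array gave 0 higher and 3 to 17 lower members for HSALR saline minus WT, 14 to 21 higher and 0 lower for ASO 445236 minus saline, 0 to 3 higher and 0 to 1 lower for ASO 190401 minus saline, 0 to 1 higher and 1 to 6 lower for ASO 190401 minus WT, 7 to 11 higher and 0 to 1 lower for ASO 445236 minus WT, and 3 to 14 higher and 0 lower for ASO 445236 minus ASO 190401. Median scaling moved the median of all genes to 0.16 for ASO 445236 minus saline (1530 genes higher and 257 lower), 0.18 for ASO 190401 minus saline (1943 and 296), 0.18 for ASO 190401 minus WT (1808 and 282) and 0.15 for ASO 445236 minus WT (1455 and 164). Dim probes limit the data: 12 of the 35 measured members were not above background on every array, and differences near background are understated by the offset. No paired analysis was possible because the labels give no replicate numbers; replicates were numbered in accession order.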
